A study of Mus musculus with 6 samples.

Results

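The core B lineage transcription factors described here are the 10 genes Pax5, Ebf1, Spi1, Spib, Lef1, Sox4, Bcl11a, Erg, Hhex and Myb. Their probe sets were found by gene symbol in the array's platform annotation. They are 10 of 18193 genes with a probe set that carries 1 gene name, and they hold 32 of 45037 probe sets. All 10 genes and 28 of their 32 probe sets reached the signal minimum described below and were tested. The study asked how irradiated pre-B cells change their transcripts when the cells are held in G1. RNA from irradiated cells (1 Gy of γ-rays, 3 arrays, collected 2 hours later) was compared with RNA from mock-irradiated cells (0 Gy, 3 arrays) on Affymetrix mouse genome arrays, which report 1 signal for each probe set, a group of short probes to 1 transcript. Each dose holds the same 3 WT murine pre-B cell lines, derived independently from mice that carry the anti-apoptotic Eμ-Bcl2 transgene. The array titles give a replicate number and no line name, and arrays of equal number were taken as the same line. The lines of both doses are transformed by the v-Abl kinase. All cells were kept for 48 hours in 3 μM STI-571 (imatinib), which blocks that kinase and halts the cells before S phase. Both doses are therefore transformed and drug-arrested cells, and primary pre-B cells were not measured on these arrays.

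B lineage cells are made stepwise from progenitors in the bone marrow. PU.1, the product of Spi1, together with Myb and Hhex acts in early lymphoid progenitors. Ebf1 and Pax5 then switch on genes of the pre-B cell receptor and shut off genes of other lineages, and Pax5 is known for holding cells in the B lineage. Lef1 and Sox4 belong to the HMG-box proteins and are known for keeping pro-B cells alive. Bcl11a is a zinc finger protein without which B cells do not form, Erg is an ETS factor that supports Ebf1 and Pax5 in pro-B cells, and Spib is the closest relative of PU.1.

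Hhex fell after 1 Gy and was the only member whose brightest probe set passed the test without regard to the line. When each irradiated array was compared within its own line, 6 members passed. Bcl11a, Spib and Spi1 were then higher, and Hhex, Lef1 and Erg were lower. Pax5 leaned higher in all lines and lay just outside the threshold in that comparison, while Ebf1, Sox4 and Myb passed neither test. Log2 signals were tested with limma, and p-values were adjusted over all 21762 probe sets that reached a signal of 100 on at least 1 array. An adjusted p under 0.05 counted as passing, and the probe set with the highest mean log2 signal stood for its gene. Among the 10 members, 0 passed as higher and 1 as lower (2 and 2 at an unadjusted p under 0.05, limma), where 2.11% and 3.2% of all 9678 genes tested passed in the same directions. With the cell line as a block, 3 members passed as higher and 3 as lower, where 6.61% and 14.7% of all genes did. Irradiated and mock signals did not overlap in 2 members that were higher and 2 that were lower, where 12.3% and 20.6% of all genes showed this. In 4 members the irradiated signal was the higher in all 3 lines and in 3 members the lower, where 23.7% and 41.3% of all genes were so. The median log2 fold change was 0.15 over the members and -0.11 over all genes. With any 1 array left out, or with 1 line left out in either fit, 0 members passed. In those fits 2 to 4 members were higher and 1 to 3 lower at an unadjusted p under 0.05 (limma).

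**Figure D1:**
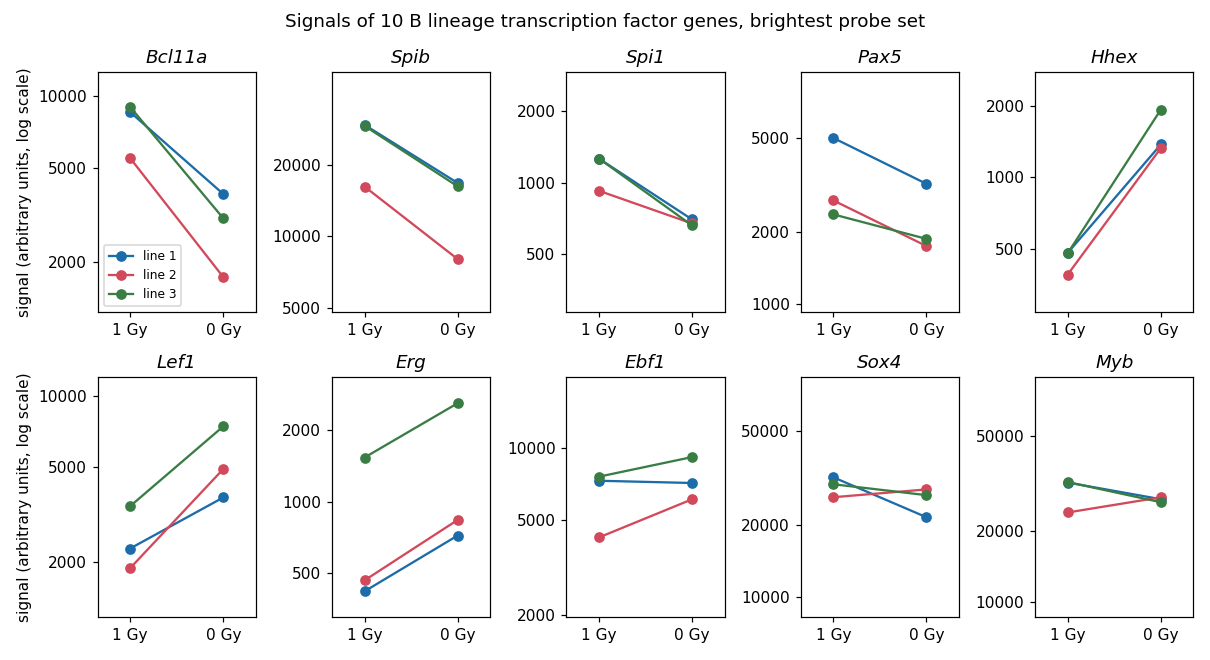
Each panel gives 1 of the 10 factors, with dose across (1 Gy, then 0 Gy) and array signal upward on a log axis of equal span in all panels, in arbitrary units, and each coloured line connects the arrays of a cell line. The lines run in parallel for Erg, whose signals differ 3.60-fold between mock-irradiated lines, and in Hhex the 3 irradiated signals, 390 to 480, all lie below the mock signals.

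The promoters of 3 of the members that moved, in both directions, held a match to the NF-κB consensus, and these are shown because many NF-κB genes are known to respond to DNA breaks in lymphocytes. The RefSeq table of mouse promoters (build GRCm38.p6) held 9 of the 10 members, all but Spi1, in 15 windows for the different start sites. The 250 bases before each start were searched on both strands. Capitals mark matches to the NF-κB consensus, which has 10 positions, and in Bcl11a overlapping matches form 1 longer run.
Hhex, chr19:37434591-37434840, plus strand: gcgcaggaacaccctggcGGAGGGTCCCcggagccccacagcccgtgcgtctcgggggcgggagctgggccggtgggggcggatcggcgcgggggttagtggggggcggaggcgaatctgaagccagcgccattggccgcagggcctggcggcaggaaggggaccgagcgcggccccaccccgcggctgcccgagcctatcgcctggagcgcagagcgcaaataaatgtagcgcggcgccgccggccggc
Bcl11a, chr11:24080445-24080694, plus strand: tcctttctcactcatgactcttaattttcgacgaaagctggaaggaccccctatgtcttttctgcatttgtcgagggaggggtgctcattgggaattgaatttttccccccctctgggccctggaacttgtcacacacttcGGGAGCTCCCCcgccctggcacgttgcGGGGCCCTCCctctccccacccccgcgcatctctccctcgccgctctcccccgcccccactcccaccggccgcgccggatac
Spib, chr7:44532072-44532321, minus strand: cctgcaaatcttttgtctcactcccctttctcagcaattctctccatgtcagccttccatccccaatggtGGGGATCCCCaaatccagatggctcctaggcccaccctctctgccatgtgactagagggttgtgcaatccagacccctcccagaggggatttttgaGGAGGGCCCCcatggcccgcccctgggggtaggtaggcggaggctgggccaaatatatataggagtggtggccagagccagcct
Of all 32851 windows in the table, 7.25% held such a match, as did 3 of the 15 windows of members. The windows of Lef1 and Erg, which also passed with the block, held no match, nor did those of Pax5, Ebf1, Sox4 and Myb. Of the 250 bases, 76.0% were G or C in Hhex, 62.0% in Bcl11a and 58.0% in Spib, against a median of 52.4% over all windows. The matches did not overlap any of the other motifs searched. The ETS core GGAA, the sequence that PU.1, Spib and Erg bind, was in 14 of the 15 windows and in 93.4% of all windows. The palindromic EBF1 consensus and the TCF/LEF site CTTTGAT were in 0 of the 15, and in 0.779% and 3.21% of all windows. The E-box CANNTG was in 10 of the 15 windows and in 66.2% of all, and CCAAT was in 6 of the 15 and in 33.8% of all. These matches describe letters and not bound sites.

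Hhex, a homeobox protein of early lymphoid cells, had signals of 480, 390 and 479 in irradiated lines 1, 2 and 3, against 1373, 1325 and 1924 in the same lines without irradiation. All 3 irradiated signals lay below all 3 mock signals, by a wide margin. This was a log2 fold change of -1.76 (standard error 0.20, 95% interval -2.25 to -1.27), a 3.39-fold lower signal, with an adjusted p of 0.0197 from limma and 0.0111 with the block. Within lines the log2 ratios were -1.52, -1.77 and -2.01. Hhex has 1 probe set on the array, so that no second measurement of it was available here. The adjusted p was 0.118 without the signal minimum and 0.0519 by the methods' t-test after Benjamini-Hochberg adjustment, and it was 0.0603 to 0.0829 with any 1 array left out (limma for the first and last). The genes whose log2 signals most resembled those of Hhex over the 6 arrays, among 8907 with a mean signal of 100 or above, were 9930012K11Rik (r = 0.997), Ikbkg (r = 0.997), the regulatory subunit of the kinase that activates NF-κB, and Tle3 (r = 0.996), a Groucho corepressor. The 6 arrays share 3 lines and 1 dose step, and these correlations are descriptions.

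Bcl11a had the largest upward log2 fold change of the 10 members. Its brightest probe set had signals of 8567, 5487 and 9007 in irradiated lines 1, 2 and 3, against 3875, 1733 and 3062 in the mock-irradiated lines. The groups did not overlap, and line 2 was the lowest at both doses. The mean step on the log2 scale was 1.45 (standard error 0.36, 95% interval 0.58 to 2.33), with an adjusted p of 0.0808 from limma and 0.0144 with the block. Of 7 probe sets for Bcl11a, 6 were tested, and in each the irradiated signals lay above all mock signals. Their log2 fold changes were 1.12 to 1.90, and all 6 passed with the block (adjusted p of 0.0118 to 0.0308, limma). Without the block 1 of the 6 passed, a probe set with signals of 878, 672 and 681 against 337, 183 and 294 (log2 fold change 1.49, adjusted p = 0.0423, limma). The _x_at ending of its name marks probes that may also bind other transcripts. The seventh stayed under 100, with signals of 94.0, 39.4 and 97.2 in irradiated lines and 37.2, 30.8 and 61.0 in mock-irradiated lines.

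The ETS factors Spib and Spi1 were also higher within every line. Spib, which acts in B cells and plasmacytoid dendritic cells, had signals of 29466, 16216 and 29184 in irradiated lines 1, 2 and 3, against 16786, 8029 and 16246 in mock-irradiated lines. The groups overlapped, since the irradiated line 2 signal was lower than 2 of the 3 mock signals. The step was nonetheless much alike in the lines, with log2 ratios of 0.81, 1.01 and 0.85. The log2 fold change was 0.89 (standard error 0.39, and 0.12 with the block), with an adjusted p of 0.242 from limma and 0.0180 with the block. Spi1, the gene of PU.1, had signals of 1261, 924 and 1262 in irradiated lines, against 700, 673 and 660 in mock-irradiated lines. Its mock signals were nearly equal and all irradiated signals lay above them. On the log2 scale the difference was 0.75 (standard error 0.17), with an adjusted p of 0.0692 from limma and 0.0364 with the block. Each gene was read by 1 probe set.

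**Figure D2:**
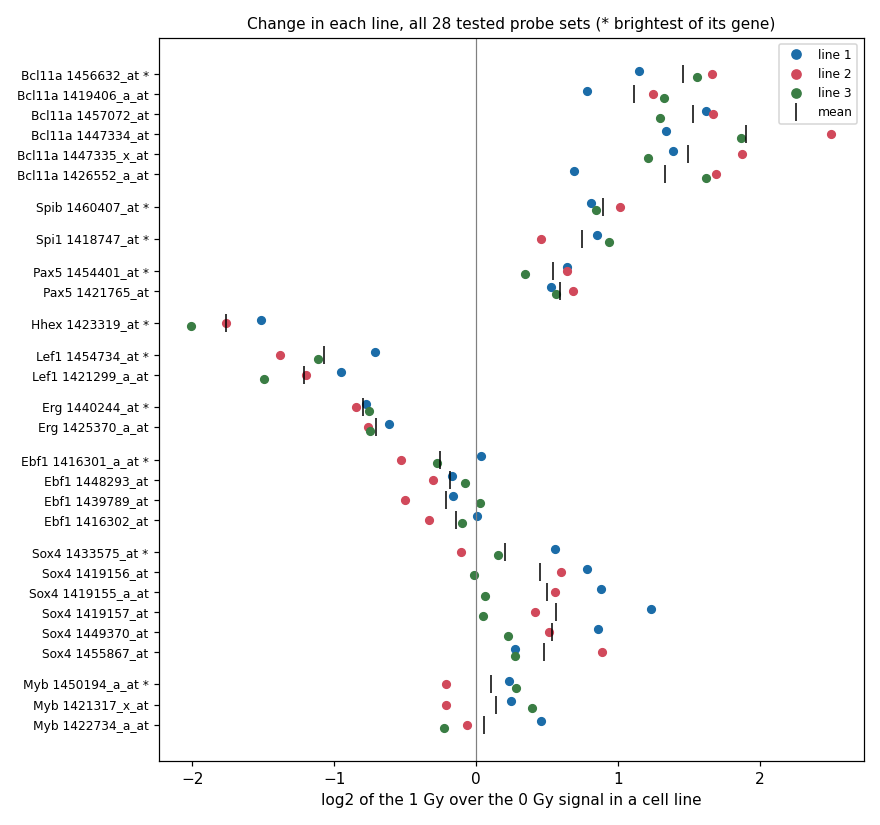
Log2 of the 1 Gy signal over the 0 Gy signal (horizontal axis) within each cell line (coloured points) and their mean (black bars) for the 28 tested probe sets of the 10 factors, with the brightest of each gene marked by an asterisk. All points of Bcl11a, Spib, Spi1 and Pax5 lie above 0 and all points of Hhex, Lef1 and Erg lie below it, while those of Ebf1, Sox4 and Myb fall on both sides.

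Both probe sets of Pax5 read higher in each irradiated line than in the same line without irradiation. The brighter gave signals of 4979, 2719 and 2376 in irradiated lines 1, 2 and 3, against 3192, 1748 and 1874 in mock-irradiated lines. The groups overlapped because line 1 was high at both doses. Pax5 thus had a log2 fold change of 0.54 (standard error 0.37, and 0.13 with the block), with an adjusted p of 0.449 from limma and 0.0522 with the block. The dimmer probe set had signals of 331, 338 and 403 in irradiated lines and 229, 211 and 273 in mock-irradiated lines, with no overlap. Its log2 fold change was 0.59, with an adjusted p of 0.106 from limma and 0.0348 with the block. When the probe sets of a gene were averaged, Pax5 passed with the block (log2 fold change 0.57, adjusted p = 0.0229, limma). That combination was chosen after seeing the data. Without the block the average of Pax5 did not pass (adjusted p = 0.135, limma).

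Lef1, the HMG-box partner of β-catenin, had lower signals after 1 Gy. Its brightest probe set gave 2279, 1884 and 3432 in irradiated lines 1, 2 and 3, against 3736, 4919 and 7435 in mock-irradiated lines. The groups did not overlap, and line 3 was the highest at both doses. The mean log2 difference was -1.07 (standard error 0.34, 95% interval -1.90 to -0.25), with an adjusted p of 0.134 from limma and 0.0243 with the block. The other probe set, at 302, 305 and 466 in irradiated lines and 585, 700 and 1310 in mock-irradiated lines, changed by -1.22 on the log2 scale, with an adjusted p of 0.115 from limma and 0.0171 with the block.

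Erg was the member whose levels differed most between the lines and whose step differed least. Its brightest probe set had signals of 420, 467 and 1536 in irradiated lines 1, 2 and 3, against 722, 840 and 2599 in mock-irradiated lines. Line 3 was thus 3.65-fold above the lowest line after irradiation and 3.60-fold above it without. The log2 ratios within lines were -0.78, -0.84 and -0.76, a standard deviation of 0.045 between lines, against standard deviations of 1.04 and 1.01 in the log2 signals at 1 Gy and 0 Gy. The log2 fold change was -0.79, with a standard error of 0.70 without the block and 0.11 with it, and the adjusted p was 0.560 and 0.0194 (limma). A second probe set, at 116, 102 and 304 in irradiated lines against 179, 173 and 509 in mock-irradiated lines, had a log2 fold change of -0.71 and an adjusted p of 0.0248 with the block (limma, 0.542 without it). Leaving out the mock array of line 3 moved the unblocked log2 fold change of Erg to -0.21, and leaving out its irradiated array moved it to -1.39.

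**Figure D3:**
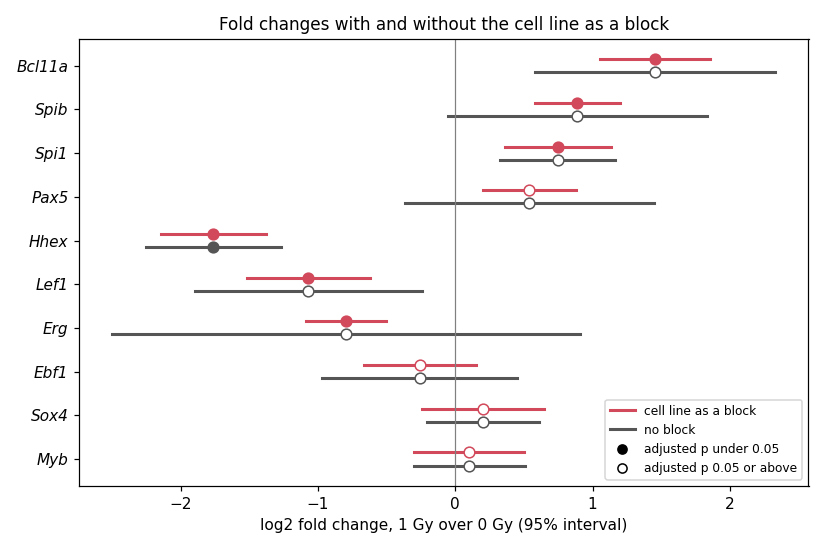
Log2 fold changes of the 10 factors (points) with 95% intervals from limma (bars), with the cell line as a block in red and without it in grey. Filled points mark an adjusted p under 0.05, which 6 factors had with the block and Hhex alone had without it, and the interval of Erg narrows most.

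Ebf1, Sox4 and Myb passed neither test, and their intervals leave room for modest changes. Ebf1, which opens the B lineage programme, had signals of 7301, 4217 and 7595 in irradiated lines 1, 2 and 3, against 7144, 6102 and 9183 in mock-irradiated lines. The log2 fold change was -0.26 (95% interval with the block -0.66 to 0.15), with an adjusted p of 0.655 from limma and 0.289 with the block. Its 4 tested probe sets had log2 fold changes of -0.26 to -0.14, and line 2 had the lowest ratio in all 4. Myb, a factor of proliferating progenitors, had signals of 31835, 23832 and 31992 in irradiated lines and 27097, 27603 and 26315 in mock-irradiated lines, a log2 fold change of 0.10 (95% interval with the block -0.30 to 0.50, adjusted p = 0.774 from limma and 0.663 with the block). Its 3 probe sets gave log2 fold changes of 0.05 to 0.14.

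Sox4, an HMG-box factor of pro-B cells, gave different values by its probe sets. The brightest had signals of 31852, 26262 and 29774 in irradiated lines 1, 2 and 3, against 21636, 28323 and 26794 in mock-irradiated lines, a log2 fold change of 0.20 (95% interval with the block -0.25 to 0.65, adjusted p = 0.535 from limma and 0.437 with the block). The 5 dimmer tested probe sets had log2 fold changes of 0.45 to 0.56. One of these had signals of 2037, 2264 and 1737 in irradiated lines and 1123, 1584 and 1486 in mock-irradiated lines, with no overlap, and had the lowest adjusted p of the 6 (0.0896 with the block and 0.176 without it, limma). Over the 6 probe sets line 1 had log2 ratios of 0.28 to 1.23 and line 3 had -0.02 to 0.28. The highest signal on any array was 34784 to 49377, so that the brightest Sox4, Myb and Spib signals lay near the top of the range. Whether they were saturated was not tested. Of the remaining probe sets of members, 2 for Sox4 and 1 for Ebf1 stayed under 100 on all arrays, with highest signals of 19.9, 21.5 and 55.4.

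Counted over all 28 tested probe sets of the members, 1 was higher and 1 lower, where 1.93% and 2.55% of all probe sets passed in those directions (limma). With the block the counts were 9 and 5, where 6.78% and 11.5% of all probe sets passed. Probe sets of 1 gene are not independent, and 6 of the 9 belong to Bcl11a. The irradiated and mock signals did not overlap in 10 probe sets that were higher and 3 that were lower, where 12.8% and 17.1% of all tested probe sets showed this. The tested probe sets of each member shared the sign of the log2 fold change in all 7 members with over 1.

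Among the known targets of Pax5 and Ebf1, the recombinase genes fell. For this and the following lists the background is the share of all genes that passed, 2.11% as higher and 3.2% as lower without the block, and 6.61% and 14.7% with it. The lists were chosen with earlier results of these data known, so their counts are descriptions and not tests. Of 20 measured genes that Pax5 or Ebf1 is known to activate, 0 passed as higher without the block and 3 as lower. At an unadjusted p under 0.05 (limma) these counts were 1 and 5. The median log2 fold change of the 20 was -0.17, against -0.11 over all genes. With the block, 2 passed as higher and 4 as lower. Rag2 and Rag1, which encode the V(D)J recombinase, had mean signals of 283 ± 63.6 and 4902 ± 669 in irradiated lines, against 1508.5 ± 381 and 16771 ± 2990 in mock-irradiated lines (SD, n = 3). Their log2 fold changes were -2.40 and -1.77 (adjusted p of 0.0185 and 0.0188, limma). The third was Slamf6, a lymphocyte surface receptor, with a log2 fold change of -1.16 (adjusted p = 0.0344, limma). Those that passed with the block alone, chosen after their values were seen, were Cd72 (0.61) and the adaptor gene Bcar3 (0.71) upward and the inhibitory receptor gene Cd22 (-1.43) downward on the log2 scale. Of the 9 pre-B markers on the array, Rag1 and Rag2 fell in both fits. Dntt, which adds bases at V(D)J joints, had signals of 274, 242 and 1806 in irradiated lines 1, 2 and 3, against 536, 401 and 3907 in mock-irradiated lines, and line 3 was the highest at both doses. Its log2 fold change was -0.94 (adjusted p = 0.687 from limma and 0.0198 with the block). The other 6 passed in neither fit, with log2 fold changes of 0.20 for Cd79b, 0.16 for Blnk, 0.21 for Vpreb1, 0.00053 for Il7r, -0.12 for Igll1 and -0.48 for Cd79a.

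At an unadjusted p under 0.05 (limma), 1 of 9 measured genes that Pax5 is known to repress was higher and 1 was lower. Of these 9 genes, 1 passed as higher without the block and 0 as lower. The 1 was Notch1, the receptor that directs lymphoid progenitors to the T lineage, with a mean signal of 7306 ± 442 in irradiated lines and 3283 ± 444 in mock-irradiated lines (SD, n = 3), a log2 fold change of 1.16 (adjusted p = 0.0255, limma). With the block, 2 passed as higher and 3 as lower, and the added ones were the cytokine receptor gene Flt3 (0.52) upward and Xbp1 (-0.78), Sdc1 (-0.65) and Grap2 downward on the log2 scale, all chosen after their values were seen. Grap2 had mean signals under 100 at both doses.

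Other transcription factors of early B cells moved both ways. Of 17 measured, 4 passed as higher without the block and 2 as lower, and the median log2 fold change was -0.21. Id2, an inhibitor of E proteins, had a mean signal of 1350 ± 482 in irradiated lines against 210 ± 4.87 in mock-irradiated lines (SD, n = 3), a log2 fold change of 2.61 (adjusted p = 0.0208, limma). Irf8 and Irf4, partners of PU.1 on DNA, had log2 fold changes of 1.70 and 1.00 (adjusted p of 0.0453 and 0.0289, limma), and Bcl6, a repressor of germinal centre B cells, had 1.63 (adjusted p = 0.0188, limma). Zeb2, a zinc finger repressor, fell by 1.23 and Ikzf1, the gene of Ikaros, fell by 0.90 on the log2 scale (adjusted p of 0.0382 and 0.0341, limma). Irf4 and Ikzf1 had the smallest changes of the 6 and were named after their values were seen. With the block, 5 passed as higher and 5 as lower, among them Id3, a relative of Id2, with a log2 fold change of -2.42 (adjusted p = 0.0111, and 0.0775 without the block, limma), named after its value was seen.

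Relatives and partners of the members were counted in 3 further lists. Of 13 measured relatives of Spi1, Spib and Erg in the ETS family, 1 passed as higher without the block and 1 as lower. At an unadjusted p under 0.05 (limma) the counts were 4 and 2, and the median log2 fold change of the 13 was 0.21. Erf, an ETS repressor, rose by 0.81 and Elk3, a partner of serum response factor, fell by 1.60 on the log2 scale (adjusted p of 0.0380 and 0.0443, limma). With the block, 3 passed as higher and 2 as lower, among them Ets2 with a log2 fold change of 2.25 (adjusted p = 0.0103, and 0.0992 without the block, limma), named after its value was seen. At an unadjusted p under 0.05 (limma), 1 of 11 measured relatives and partners of Lef1 and Sox4 was higher and 3 were lower. The median log2 fold change of the 11 was -0.29. Of these 11, 0 passed as higher without the block and 1 as lower. The 1 was Tle3, with a log2 fold change of -0.97 (adjusted p = 0.0257, limma). With the block 2 of them passed as higher and 2 as lower, and Axin2, a gene that LEF and TCF factors activate, had a log2 fold change of 1.83 (adjusted p = 0.0103, and 0.208 without the block, limma), also named after its value was seen. Of 8 paralogs of Pax5, Ebf1, Bcl11a and Myb, 2 were measured, Mybl1 (log2 fold change -0.07) and Mybl2 (2.11), both named after their values were seen, and 0 passed without the block (limma, 1 at an unadjusted p under 0.05), where Mybl2 had an adjusted p of 0.0580. The lists share Ets1, and their counts are therefore not independent.

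**Figure D4:**
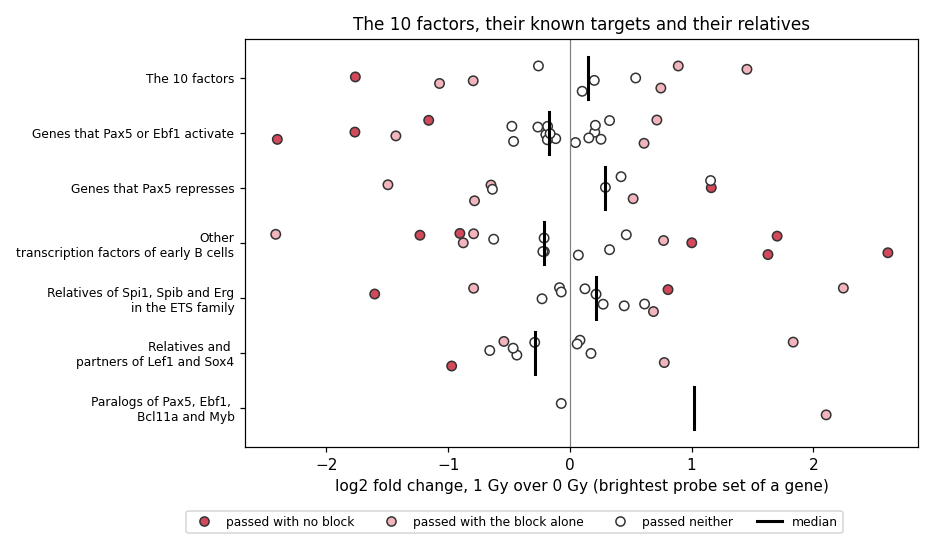
Log2 fold changes (horizontal axis) of the 10 factors and of 6 lists of related genes, 1 point per gene by its brightest probe set, with the median of each list as a black bar. Dark points passed without the block and light red points with the block alone, and every list holds points on both sides of 0.

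The arrays held the marks of pre-B cells, few or none of T, myeloid, erythroid and stromal cells, and some of plasma cells. Of 10 pre-B markers 9 were on the array under 1 gene name and all 9 reached 100 on every array, with summed signals of 87538 to 114610 in irradiated lines and 110540 to 111770 in mock-irradiated lines. Of 9 T cell, 5 erythroid and 7 stromal markers on the array, 0 reached 100 on any array. Of 8 myeloid markers 2 did, both named after their values were seen. Itgam had signals of 262, 342 and 235 in irradiated lines and 163, 162 and 130 in mock-irradiated lines. Cd68 had 185, 159 and 146 against 111, 115 and 81.0. The summed myeloid signal was 551 to 619 in irradiated lines against 335 to 420 in mock-irradiated lines. Lyz2, Mpo, Elane, Cebpa, Csf3r and Ccr2 stayed under 100 on all arrays. Among these, only Ccr2 showed no overlap between the doses. Its signals were 79.7, 20.6 and 71.7 in irradiated lines and 9.33, 13.6 and 19.4 in mock-irradiated lines. It was likewise named after its values were seen. Of 5 plasma cell markers 3 reached 100, with sums of 3298 to 5069 in irradiated lines and 5250 to 6496 in mock-irradiated lines, and Jchain and Tnfrsf17 stayed under 100. Of all probe sets, 41.7% to 43.8% reached 100 on an array. As a measure of RNA integrity, the 3'/5' ratio of β-actin was 1.32 ± 0.06 in irradiated lines and 1.44 ± 0.051 in mock-irradiated lines (SD, n = 3), and p was 0.1 by a two-sided exact permutation test, which cannot go lower with 3 arrays a dose. The same ratio for Gapdh was 0.793 ± 0.0076 in irradiated lines and 0.820 ± 0.070 in mock-irradiated lines (SD, n = 3), with p = 0.9 by the same exact permutation test. The part of the myeloid signal and of these ratios in the values above was not tested. Fewer cells of a type and less RNA per cell cannot be told apart in these samples.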

How the data were processed

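Total RNA of 6 cultures was hybridised to 6 arrays. The authors deposited 1 linear intensity for each probe set and array, made with MAS5 according to the submitters' notes. The trimmed mean of every array, leaving off 2% at either end, is 500.0. The RMA summary named in the study's methods could not be repeated from these values, its minimum of 100 was kept, and its quantile normalization and ANOVA (the methods' t-test) were run as alternatives. Signals under 1 were set to 1, log2 values were taken, and 64 control probe sets were left out. Of the other 45037, 21762 reached 100 on at least 1 array and were tested with limma (version 3.58.1, R 4.3.3), 1 Gy against 0 Gy, with Benjamini-Hochberg adjustment over all of them. Gene names came from the platform annotation, refreshed through RefSeq gene IDs. A single gene name was found for 34945 probe sets, while 932 with several names and 9160 absent from the annotation stayed unnamed.

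The series' design text gives both doses to each line, and the replicate number was taken to mark the line. Deviations from the group means correlated at 0.668 to 0.781 between arrays of the same number (3 pairs) and at -0.495 to -0.0525 between different numbers, and the line as a block was fitted beside the fit without it. In the fit without the block, the spread behind a p-value is that between cell lines at the same dose. The block takes out differences in level between lines, and the spread left is how the dose step differs between them. Either spread rests on only 3 arrays a dose and is known with little precision. The fits were run on simulated data, where each missed many of the changes put in. A gene that did not pass may therefore still have changed. The members and the gene lists were chosen with earlier results of these data known. Named genes are the 10 members, up to 4 of each list that passed without the block and had the largest change, and the 3 genes most like each member that passed without the block. Alternatives were the block, no minimum, quantile normalization, scaling to 1 median, adding 16 before the log, a floor of 100, the methods' t-test, averaging a gene's probe sets, and leaving out arrays or lines.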

Additional observations from a re-analysis of the deposited data

How the results depend on the processing

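The direction of the log2 fold change held in 9 of the 10 members under all 18 other settings. That of Ebf1 ranged from -0.41 to 0.0149 with 1 array left out, and turned upward (0.0149) without the irradiated array of line 2. With any 1 array or 1 line left out, 0 members passed in either direction, and over all probe sets 0 to 61 passed as higher and 0 to 33 as lower. In the same fits the log2 fold changes were -1.89 to -1.59 for Hhex, 1.12 to 1.70 for Bcl11a, 0.65 to 0.90 for Spi1, -1.31 to -0.81 for Lef1, 0.02 to 0.36 for Sox4 and 0.01 to 0.26 for Myb. Those of Erg were -1.39 to -0.21, those of Pax5 were 0.22 (without the irradiated array of line 1) to 0.81 (without its mock array), and those of Spib were 0.54 (without the mock array of line 2) to 1.18 (without its irradiated array). The lists then held 0 to 2 genes that Pax5 or Ebf1 activate as lower and 0 to 1 other early B cell factors as higher, and 0 in all other list counts. With the block and 1 line left out, 0 members passed either way, and adjusted p-values (limma) were 0.0501 to 0.0524 for Hhex and 0.0529 to 0.0627 for Bcl11a. Only 2 lines then remain.

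In the fit with the replicate block (the cell line), 1475 probe sets passed as higher and 2499 as lower, 3 members passed each way, and all 975 calls made without the block were among them. The lists gave 2 Pax5 or Ebf1 activated genes higher, 2 repressed genes higher and 3 lower, 5 other early B cell factors lower, 3 ETS relatives higher and 2 lower, 2 Lef1 and Sox4 relatives or partners higher and 2 lower, and 1 paralog higher. The block with quantile normalization or a common median gave 3 members higher and 3 lower, and with the mean of all probe sets 4 and 3, the added one being Pax5. These combinations were chosen after seeing the data. Without the signal minimum 1 probe set passed as higher and 0 as lower (5391 at an unadjusted p under 0.05, limma), and 0 members and 0 genes of any list passed (2 members each way at an unadjusted p under 0.05). Quantile normalization gave 2 ETS relatives higher, 2 lower and 1 paralog higher. Of all probe sets 419 were higher and 556 lower as deposited, against 500 and 458 after quantile normalization and 366 and 274 with a common median. A common median also gave 1 other early B cell factor lower and 0 ETS relatives either way. Log2 of the signal plus 16 gave 1 paralog higher. A floor of 100 gave 635 probe sets higher and 841 lower, 1 member higher (Spi1), 2 ETS relatives lower and 1 paralog higher. The methods' t-test at its own thresholds gave 1121 probe sets higher and 1729 lower, 2 members each way (Bcl11a and Spi1, Hhex and Lef1), 1 activated gene higher, 1 repressed gene lower, 5 other early B cell factors lower, 3 ETS relatives higher and 2 lower, and 1 paralog higher. After Benjamini-Hochberg adjustment it gave 172 probe sets higher and 180 lower, 0 members lower, 1 activated gene lower, 2 other early B cell factors higher and 1 lower, and 0 ETS relatives lower. The mean of all probe sets gave 1 activated gene higher, 1 repressed gene lower and 2 ETS relatives lower. The causes of these differences were not tested. Leaving out arrays changed both their number and which arrays remained.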
